A study of Arabidopsis thaliana with 24 samples.

Results

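The genes carried by the chloroplast genome of Arabidopsis thaliana were followed in the cotyledons (the seed leaves) and hypocotyls (the seedling stem) of dark-grown seedlings, through the first 6 h of light and in a mutant lacking light-signalling repressors. The members were all entries whose gene identifier starts with ATCG, 133 of the 33557 genes in the authors' deposited tables. They comprised 88 protein-coding entries, 37 tRNA genes and 8 rRNA genes. By function, 15 coding entries belonged to photosystem II, 5 to photosystem I, 2 to photosystem I assembly, 6 to the cytochrome b6f complex, 6 to ATP synthase, 12 to the NADH dehydrogenase-like (NDH) complex and 1 was the large subunit of Rubisco. Another 4 encoded RNA polymerase core subunits, 15 small-subunit and 11 large-subunit ribosomal proteins, and the other 11 held the remaining reading frames.

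The series held 24 samples in 8 groups of 3, which the labels call biological repeats. For each organ there were wild type Col groups kept dark, given 1 h of light or given 6 h of light, and a dark group of the pifq line, which is mutated in PIF1, PIF3, PIF4 and PIF5. All seedlings were 4 days old and grew in the dark after a germination treatment of 3 h of white light and a 5 min far-red pulse (2 µmol m-2 s-1). White light for the treated groups was 70 µmol m-2 s-1. The libraries were made as mRNA libraries from total RNA. The authors deposited 1 FPKM (fragments per kilobase of gene, scaled to the depth of the library) per group, so no spread between samples can be given. Depth is unknown for all of these values. A gene is said to rise or fall where its q in the authors' deposited table was under 0.05. Fold changes are log2 ratios of the group values, with the standard error (SE) recovered from the authors' statistic.

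The chloroplast genome encodes core subunits of the photosynthetic complexes and part of the machinery that expresses them, and the nucleus encodes the remaining subunits. Many chloroplast genes are transcribed together as operons, by a bacterial-type polymerase whose core subunits are chloroplast-encoded and whose sigma factors are nuclear-encoded, and by phage-type polymerases encoded in the nucleus. Dark-grown cotyledons hold etioplasts, which turn into chloroplasts in light, and PIF proteins restrain that programme in darkness.

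The coding sequences below carry the widest values of the data. psbM and rpl36 had the highest FPKM of all members in dark cotyledons, and psaJ showed the largest called fold change in the mutant. They are read from the RefSeq chloroplast genome of the TAIR10.1 assembly, which has the coordinates the authors' files use, and are printed 5′ to 3′ on the coding strand with the start and stop codons in capitals. psbM encodes a small photosystem II subunit and lies at ChrC:28707-28811 on the minus strand; rpl36 encodes a large-subunit ribosomal protein and lies at ChrC:79489-79602 on the minus strand; psaJ encodes a small photosystem I subunit and lies at ChrC:66929-67063 on the plus strand.
psbM: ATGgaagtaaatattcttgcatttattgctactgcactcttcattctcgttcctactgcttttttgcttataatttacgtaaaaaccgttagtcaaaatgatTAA
rpl36: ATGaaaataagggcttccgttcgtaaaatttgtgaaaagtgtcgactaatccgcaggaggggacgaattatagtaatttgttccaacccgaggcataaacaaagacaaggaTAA
psaJ: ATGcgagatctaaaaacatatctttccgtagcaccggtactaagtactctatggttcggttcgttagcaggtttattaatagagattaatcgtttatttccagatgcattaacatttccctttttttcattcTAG

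These 3 genes were only 105, 114 and 135 nt long, and the highest levels per length belonged to such short genes. In dark cotyledons psbM was listed at 166006 FPKM, rpl36 at 29074 FPKM and rpl32, a 159 nt ribosomal protein gene, at 13204 FPKM. By contrast psbA, which encodes the D1 reaction-centre protein of photosystem II over 1062 nt, stood at 114 FPKM and rbcL, the large Rubisco subunit gene of 1440 nt, at 333 FPKM. Across the 70 coding genes outside the inverted repeat with a value above 0, length and level ran in opposite order (Spearman's rho -0.62; all points come from the same libraries). The part of the length correction in these levels was not tested, and summaries of level below use the 48 genes of 300 nt or longer outside the inverted repeat. Among those 48, the longest run of A in the coding sequence had a rho of -0.22 with the level.

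The psbA gene is known for a strong bacterial-type promoter. The 30 bases below lie on the minus strand at ChrC:1530-1559 and end 85 bases before its start codon. They hold the letters TTGACA, a spacer and TANNNT, shown in capitals.
psbA upstream: TTGACAtggctatataagtcatgtTATACT
Windows from 250 bases before to 50 bases after the start codon of 73 coding genes were searched for TTGACA followed, after 17 to 19 bases, by TANNNT. The pair stood in 1 window on the coding strand (1.37%), that of psbA, and in 0 on the opposite strand. On the coding strand TTGACA, with or without TANNNT after it, stood in 8 windows (11.0%), and TATAAT in 17 windows (23.3%). A match is a description of letters and not a site, and psbA itself was not called in either organ after light.

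**Figure D1:**
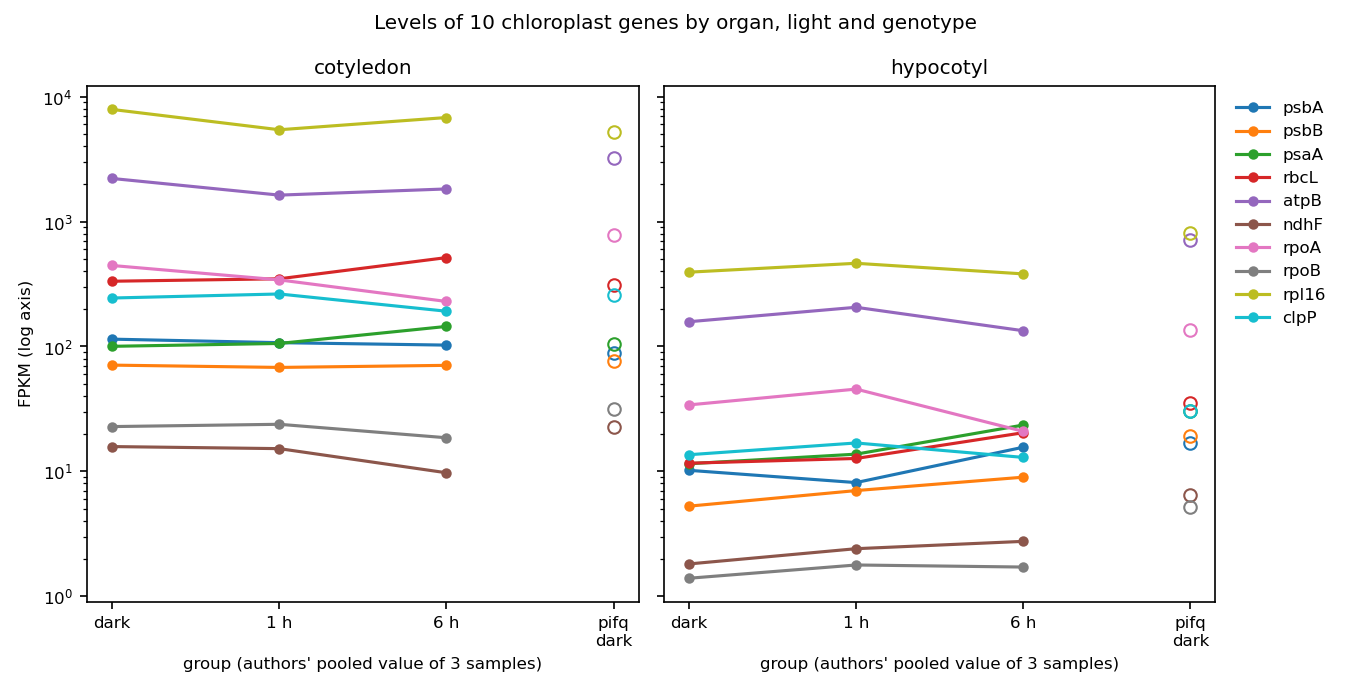
FPKM (log axis) of psbA, psbB, psaA, rbcL, atpB, ndhF, rpoA, rpoB, rpl16 and clpP in each group of the cotyledon and the hypocotyl; lines join the wild type values in the dark, at 1 h and at 6 h, and open circles are dark pifq. The pifq values come from the mutant tables and the wild type values from the light tables. Each gene is higher in the cotyledon panel, and in the hypocotyl panel each open circle lies above the dark wild type point.

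Not every member could be measured. All 37 tRNA genes were listed at 0 in every group of every table, as were petN and petL, small cytochrome b6f subunit genes of 90 and 96 nt. The 16S and 23S rRNA genes, both copies of each, carried the status HIDATA (a locus with too many fragments for the authors' software) in all 3 cotyledon tables and in none of the 3 hypocotyl tables. These 4 entries were 4 of the 8, 8 and 10 HIDATA entries in the cotyledon tables at 1 h, at 6 h and for the mutant. A value of 0 beside that status says nothing on the level. In mutant cotyledons 16S rRNA was listed at 2731 and 2734 FPKM for its copies against 0 in wild type, both with this status, so no fold is given.

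The chloroplast genome holds an inverted repeat, and 23 entries (15 of them coding) lie in it. All 11 full pairs of copies had identical sequences, with 0 mismatches, and ycf1.1 is a partial copy of ycf1.2. Reads from such copies cannot be told apart, and the tables treated them differently. The coding entries of the repeat reached at most 42.9 FPKM in dark wild type cotyledons in the light tables but 6755 FPKM in the mutant tables. rpl2, a ribosomal protein gene, was listed at 42.9 and 15.5 FPKM for its copies in the former and at 2086 and 2022 FPKM in the latter. That the same dark wild type samples stand behind both kinds of table rests on the column names. For coding genes outside the repeat the 2 dark wild type values lay close together at the median. The median log2 ratio, mutant over light tables, was -0.12 over 70 genes in cotyledons and -0.09 over 64 genes in hypocotyls. Single genes ran from -0.65 to 0.75 in cotyledons and from -0.52 to 0.89 in hypocotyls. Folds of repeat genes in the light tables are therefore uncertain. In addition, 8 coding entries, ycf1.1 among them, overlap a neighbour (psbD with psbC, atpE with atpB, rps3 with rpl22, ycf1.1 with ndhF), and the strand setting of the counting is not given in the sources used here, so reads of psbN, which lies antisense in the psbB operon, cannot be told apart from that operon.

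**Figure D2:**
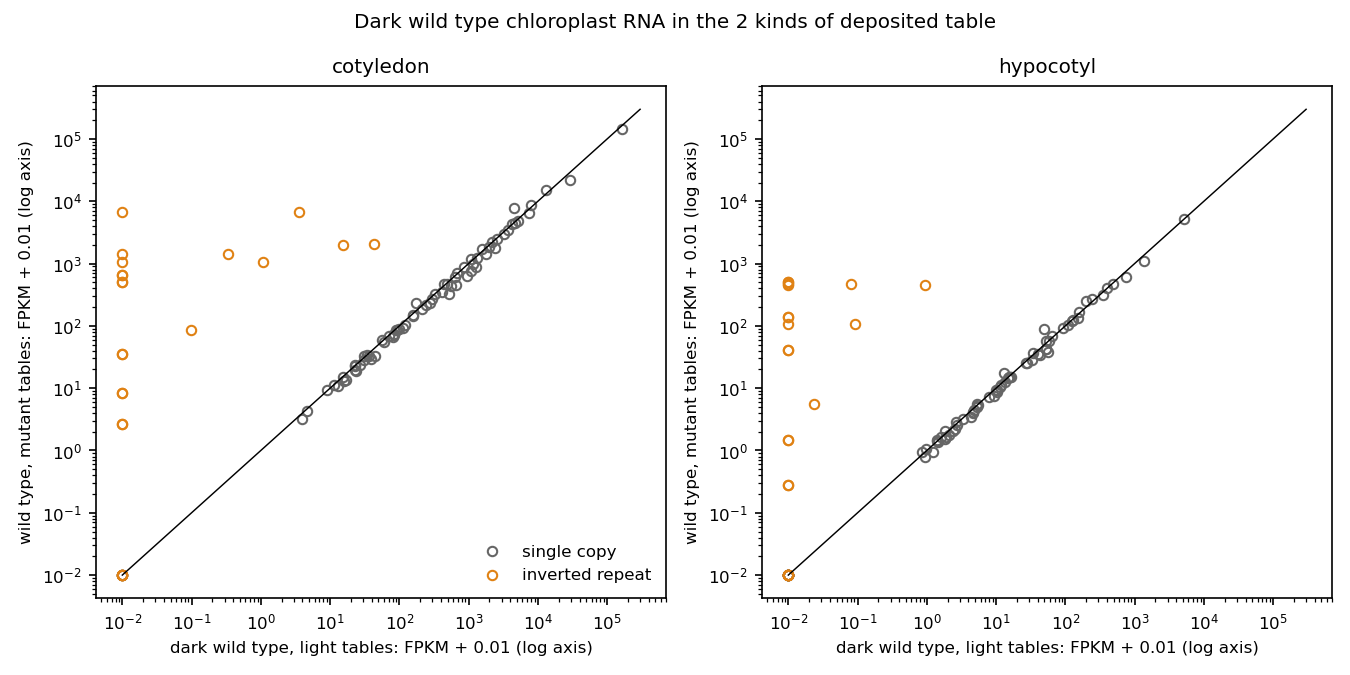
Dark wild type FPKM of the coding and rRNA members in the mutant tables (y axis) against the light tables (x axis), with 0.01 added on log axes; each circle is 1 gene, grey for single-copy genes and orange for the inverted repeat. Single-copy genes follow the diagonal, and repeat genes with a value stand far above it.

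The pifq label was checked on its targets. PIF3 fell from 64.7 to 0.623 FPKM in cotyledons and from 37.6 to 2.16 FPKM in hypocotyls, and PIF5 fell in hypocotyls from 21.5 to 8.66 FPKM. PIF5 was not called in cotyledons, PIF1 was not called in either organ and PIF4 rose in both, from 15.4 to 45.0 and from 19.3 to 44.9 FPKM; where the mutations lie in these genes is not given in the sources used here, so reads of PIF1 and PIF4 check nothing. The 4 light tables and the 2 mutant tables were tested in different ways. The normal score of the p-value was a median of 1.69 to 1.71 times the statistic in the light tables and 1 times it in the mutant tables, so a call in light needs a smaller statistic and counts of calls are not compared between them.

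In darkness the chloroplast genes had far higher FPKM in cotyledons than in hypocotyls. The libraries were made as mRNA libraries, and what share of chloroplast RNA passed into them in each group was not tested. Over the 48 longer genes outside the repeat the median was 91.5 FPKM in cotyledons and 9.54 FPKM in hypocotyls. Gene by gene the cotyledon level was a median of 13.0-fold that of the hypocotyl, from a log2 ratio of 1.67 for accD, a subunit gene of acetyl-CoA carboxylase in fatty acid synthesis, to 4.84 for rbcL. The same median log2 ratio was 3.70 for these genes, -0.15 over 10340 genes of at least 5 FPKM and -0.17 over 25 mitochondrial genes of at least 1 FPKM. Organs were tabled and normalized separately, so these ratios are descriptions without a test. Fewer cells with many plastids and fewer transcripts per cell cannot be told apart in whole organs.

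Classes differed in level. In dark cotyledons the ribosomal protein genes of the large and small subunits led, with medians of 3183 and 1102 FPKM over 4 and 7 longer genes, and rpl16 was the highest of them at 7906 FPKM. Photosystem II followed at 379 FPKM, rbcL at 333 FPKM, photosystem I at 96.5 FPKM, cytochrome b6f at 82.1 FPKM and ATP synthase at 59.4 FPKM. NDH genes had a median of 41.5 FPKM and polymerase genes 17.2 FPKM. In the hypocotyl the same classes ranged from 137 FPKM for the large ribosomal subunit to 1.19 FPKM for the polymerase, with the ribosomal classes again highest.

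The organ gap stood at a median of 9.58-fold after 1 h of light, 9.66-fold after 6 h and 4.76-fold in dark pifq seedlings. The pifq gap comes from the mutant tables, in which the dark wild type gap was 12.3-fold. rbcL illustrates it: its level was 333, 348 and 515 FPKM in cotyledons in the dark, at 1 h and at 6 h, and 11.6, 12.7 and 20.4 FPKM in hypocotyls. In pifq it was 311 FPKM in cotyledons and 35.1 FPKM in hypocotyls. The cotyledon stood above the hypocotyl in every one of these conditions.

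After 1 h of light few chloroplast transcripts moved in cotyledons. Of 72 tested members 1 rose and 3 fell, against 10.6% and 8.45% of all tested genes. The median fold change was -0.01 for members and 0.03 for all genes. The rise was in rpl32, from 13204 to 25556 FPKM (0.95, SE 0.43, q = 0.00213 in the authors' deposited table). Among the falls was ndhH, an NDH subunit gene, from 157 to 97.5 FPKM (-0.69, SE 0.40, q = 0.00961 in the authors' deposited table). With a normal p from the deposited statistic these 4 calls were lost.

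The photosystem, ATP synthase, cytochrome and polymerase genes had no call at 1 h in cotyledons. psbD, which encodes the D2 reaction-centre protein, stood at 1070 FPKM in the dark and 658 FPKM at 1 h (-0.70, SE 0.79). psaA and psaB, the reaction-centre genes of photosystem I, gave 0.08 and 0.15, rpoB, a polymerase core subunit, 0.06 and atpB, the beta subunit of ATP synthase, -0.44. petB of the cytochrome complex gave -0.42 and clpP, a protease subunit gene, 0.11. rps4 and rpl16 gave -0.08 and -0.54, and matK, which encodes an intron maturase, 0.45.

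After 6 h of light 14 of 71 tested members fell in cotyledons and 1 rose, against 19.8% and 24% of all tested genes, so the share of falls was near the background. The member median was -0.24 and that of all genes 0.03; the 1 h and 6 h comparisons share the dark samples. In the NDH complex, which passes electrons to plastoquinone around photosystem I, 3 of 10 tested genes fell and all 10 folds were negative. ndhA went from 43.8 to 35.1 and 18.3 FPKM in the dark, at 1 h and at 6 h (-1.26 at 6 h, SE 0.40, q = 0.000332 in the authors' deposited table). ndhH went from 157 to 97.5 and 73.7 FPKM (-1.09, SE 0.37) and ndhF from 15.8 to 15.2 and 9.74 FPKM (-0.70, SE 0.43). In these 3 genes the 6 h value was the lowest.

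rpoA, the alpha subunit of the bacterial-type polymerase, fell from 445 to 229 FPKM (-0.96, SE 0.40), whereas rpoB, rpoC1 and rpoC2 had no call at -0.30, -0.05 and -0.06. rpoA lies in the large ribosomal operon. All 10 tested members of that operon had negative folds, and 4 were called, rpoA and rpl2.1 among them. Both rpl2 copies (-5.16 and -3.0) lie in the repeat and rest on 42.9 and 15.5 FPKM in the dark. rpl32 fell to 7492 FPKM (-0.82) after its rise at 1 h, and rps15, another small-subunit gene, fell from 860 to 472 FPKM (-0.87). rps14 was the single rise, from 1581 to 2673 FPKM (0.76, SE 0.42, q = 0.00924 in the authors' deposited table).

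petA, the cytochrome f gene, fell from 22.9 to 12.4 FPKM (-0.88) and its upstream neighbour cemA, an envelope membrane protein gene, from 15.2 to 8.60 FPKM (-0.82). psbM was the called photosystem II gene, at 166006, 105610 and 52862 FPKM in the dark, at 1 h and at 6 h (-1.65, SE 0.76, q = 0.02 in the authors' deposited table). ycf1.2, which encodes a subunit of the inner-envelope protein import machinery, fell from 175 to 63.5 FPKM (-1.46, SE 0.42). The reaction-centre genes had no call: psaA gave 0.53 and psaB 0.41, psbA -0.16, psbB, an inner antenna protein gene, -0.01, psbD -0.48 and rbcL 0.63 (SE 0.46, q = 0.0551 in the authors' deposited table). Of the 14 falls and 1 rise, 5 kept their call with the normal p: ndhA, ndhH, ycf1.2 and both rpl2 copies.

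All 9 tested nuclear photosystem II genes and all 12 tested nuclear photosystem I genes rose in cotyledons at 6 h, with median folds of 1.32 and 1.54. Of all tested genes 24% rose and 19.8% fell in this comparison. The chloroplast-encoded photosystem II genes had 1 fall among 14 tested (median -0.01), and those of photosystem I had no call among 4 (median 0.34). Of 21 nuclear genes for plastid ribosomal proteins 14 rose (median 0.63), while 6 of 20 tested chloroplast-encoded ribosomal protein entries fell and 1 rose (median -0.31). Both rpl2 copies, whose folds in the light tables are uncertain, are among these falls. No test of the difference between these lists was made.

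In hypocotyls 1 h of light left the chloroplast genes nearly without calls. Of 65 tested members 1 rose and 0 fell, against 10% and 5.14% of all tested genes. At an unadjusted p under 0.05 the counts were 9 and 0, and with a normal p from the statistic, which cannot be formed for a gene listed at 0, the calls were rps16, psbN and psbI, short genes with recovered SEs of 0.231, 0.0213 and 0.00356. The call was psbZ, a photosystem II subunit gene of 189 nt, listed at 0 in the dark and at 97.3 FPKM at 1 h. The folds leaned upward: 55 of 63 were positive, with a median of 0.36 against 0.04 over all genes. In the NDH complex all 10 tested folds were positive (median 0.56), and so were the 4 of the polymerase genes (0.57), each with no call.

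After 6 h the rises in the hypocotyl included psaA and psaB of photosystem I, psbB of photosystem II and rbcL. Of 66 tested members 7 rose and 2 fell, against 17.3% and 22% of all tested genes, and the member median was -0.07 against -0.13. psaA was at 11.5, 13.7 and 23.5 FPKM in the dark, at 1 h and at 6 h (1.03 at 6 h, SE 0.38, q = 0.000364 in the authors' deposited table). psaB was at 10.2, 13.1 and 20.4 FPKM (1.00, SE 0.39). Both were highest at 6 h, and they are neighbours in 1 operon with rps14, which gave 0.39 with no call.

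rbcL rose by 0.81 (SE 0.40, q = 0.00156 in the authors' deposited table). psbB rose from 5.26 to 8.98 FPKM (0.77, SE 0.46) and matK from 1.22 to 2.66 FPKM (1.12, SE 0.71). psbZ and rpl33, a large-subunit gene, were listed at 0 in the dark and at 73.1 and 30.0 FPKM at 6 h. rpoA fell here too, from 34.0 to 20.9 FPKM (-0.70, SE 0.41, q = 0.00946 in the authors' deposited table). psbH, a photosystem II gene of 222 nt, fell from 15.3 to 1.65 FPKM (-3.21, SE 0.83, q = 0.0478 in the authors' deposited table). With the normal p psaA and psbH kept their call, rbcL, psaB, psbB, matK and rpoA lost it, and psbZ and rpl33 have no such p.

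psbA gave 0.61 (SE 0.46, q = 0.0778 in the authors' deposited table), atpA and atpB of ATP synthase -0.01 and -0.24, petB 0.74, accD -0.01, rps4 0.42 and rpl16 -0.05, none of them called. No NDH gene was called among 10 (median -0.15). Of 19 tested ribosomal protein genes 1 rose and 0 fell (median -0.15). All 9 folds of the large ribosomal operon were negative, and rpoA was its single call.

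Nuclear genes for the same complexes rose in the same organ, where 10% of all tested genes rose at 1 h and 17.3% at 6 h. All 12 nuclear photosystem I genes rose at 6 h with a median of 3.13, and all 9 nuclear photosystem II genes with a median of 3.50. PSAE1 went from 20.5 to 232 FPKM (3.50) and PSBR from 86.4 to 1934 FPKM (4.48). All 21 nuclear genes for plastid ribosomal proteins rose (median 2.29), as did 11 of 12 nuclear genes for polymerase-associated proteins (2.11), 5 of 6 sigma factors (2.93) and both phage-type polymerase genes, of which RPOTP went from 1.3 to 12.9 FPKM. Already at 1 h all 12 and all 9 photosystem genes had risen, with medians of 1.64 and 1.69. The list of nuclear NDH genes rose in 5 of 7 tested members (median 3.50), and the chloroplast-encoded NDH genes gave 0 calls among 10 (median -0.15). These lists were set beside the members as counts, and the difference was not tested.

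**Figure D3:**
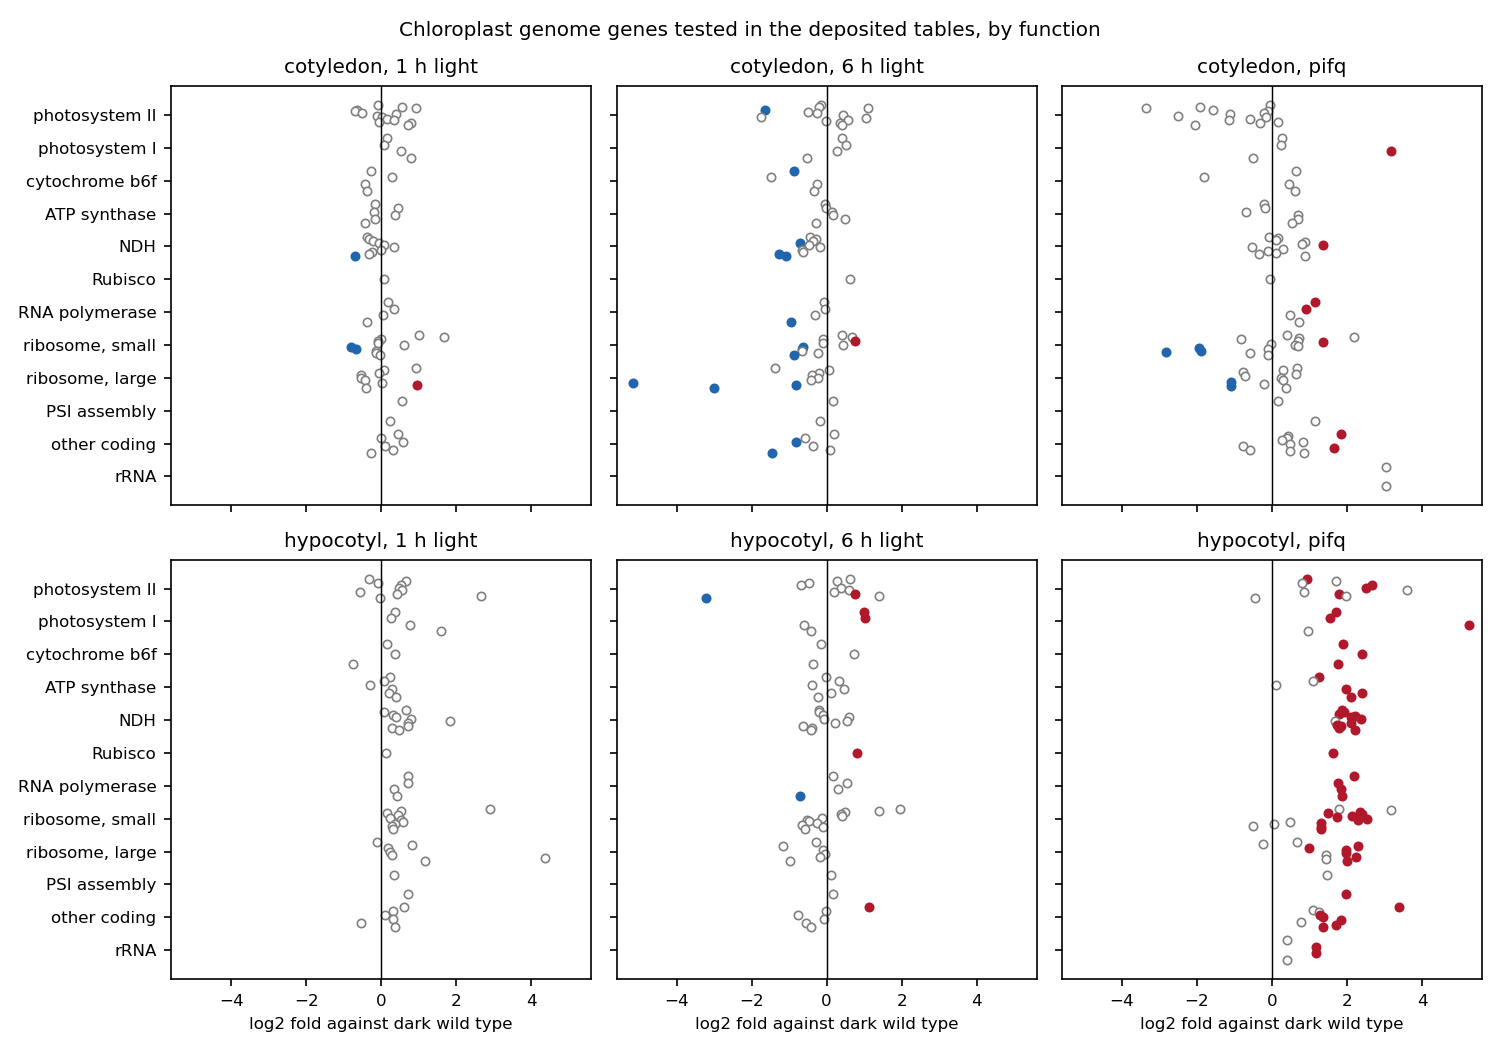
Log2 fold changes of the tested members by functional class in the 6 comparisons; each point is 1 gene, red where it rose, blue where it fell and open where it was not called, and the line marks 0. The hypocotyl pifq panel lies almost wholly above 0, and the light panels straddle it.

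SIG5 encodes the sigma factor that recognises a light-responsive promoter of psbD, and it rose in both organs at 1 h and 6 h. In cotyledons it was at 5.42, 157 and 10.5 FPKM in the dark, at 1 h and at 6 h, and in hypocotyls at 1.83, 192 and 38.1 FPKM. psbD was at 1070, 658 and 765 FPKM in cotyledons and at 55.5, 77.6 and 71.8 FPKM in hypocotyls, and its overlapping partner psbC, an inner antenna gene, at 40.3, 59.5 and 61.5 FPKM in hypocotyls. The psbD folds in hypocotyls were 0.49 (SE 0.63) and 0.37 (SE 0.61), neither called, and psbC gave 0.56 and 0.61, neither called. In dark pifq hypocotyls SIG5 had no call (1.92 and 3.18 FPKM) while psbD rose from 38.7 to 248 FPKM.

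In dark cotyledons of pifq the calls among chloroplast genes went both ways. Of 90 tested members 7 rose and 5 fell, against 4.79% and 5.66% of all tested genes, so the share of falls was near the background. The median was 0.20 for members and -0.03 for all genes. psaJ rose from 4493 to 40748 FPKM (3.18, SE 0.53, q = 1.05e-07 in the authors' deposited table), and rps18, on the same strand behind psaJ and rpl33, from 273 to 708 FPKM (1.37, SE 0.40). rpl33, which lies between them, gave 0.66 with no call.

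matK rose from 18.6 to 66.4 FPKM (1.84, SE 0.33, q = 1.4e-06 in the authors' deposited table). It lies within the trnK intron, and trnK itself was listed at 0. ccsA, a gene for attaching haem to c-type cytochromes, rose from 3.18 to 10.1 FPKM (1.66), and its neighbour ndhD from 13.5 to 34.9 FPKM (1.37). rpoC2 and rpoC1 rose by 1.15 and 0.90, and rpoB and rpoA gave 0.48 and 0.72 with no call; all 4 polymerase folds were positive.

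The falls were all in ribosomal protein genes of under 300 nt. rps15 fell from 873 to 123 FPKM (-2.83, SE 0.45, q = 2.26e-08 in the authors' deposited table) and rps19 from 7752 to 2019 FPKM (-1.94, SE 0.36). In the light tables rps19 stood at 4601 FPKM in dark wild type cotyledons, so the size of its fall is uncertain. That log2 ratio of 0.75 between the tables was the highest among coding genes outside the repeat in cotyledons. The entry rps12C in the repeat fell from 6755 to 1816 FPKM (-1.90), and both rpl23 copies fell by 1.1. Length moved with the fold change in this comparison. Coding genes outside the repeat under 300 nt had a median of -0.76 over 21 folds, and those of 300 nt or longer had 0.29 over 48 folds, with 6 rises and 0 falls. The rho between length and fold was 0.48 over 69 genes, and the part of length in the calls was not tested.

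**Figure D4:**
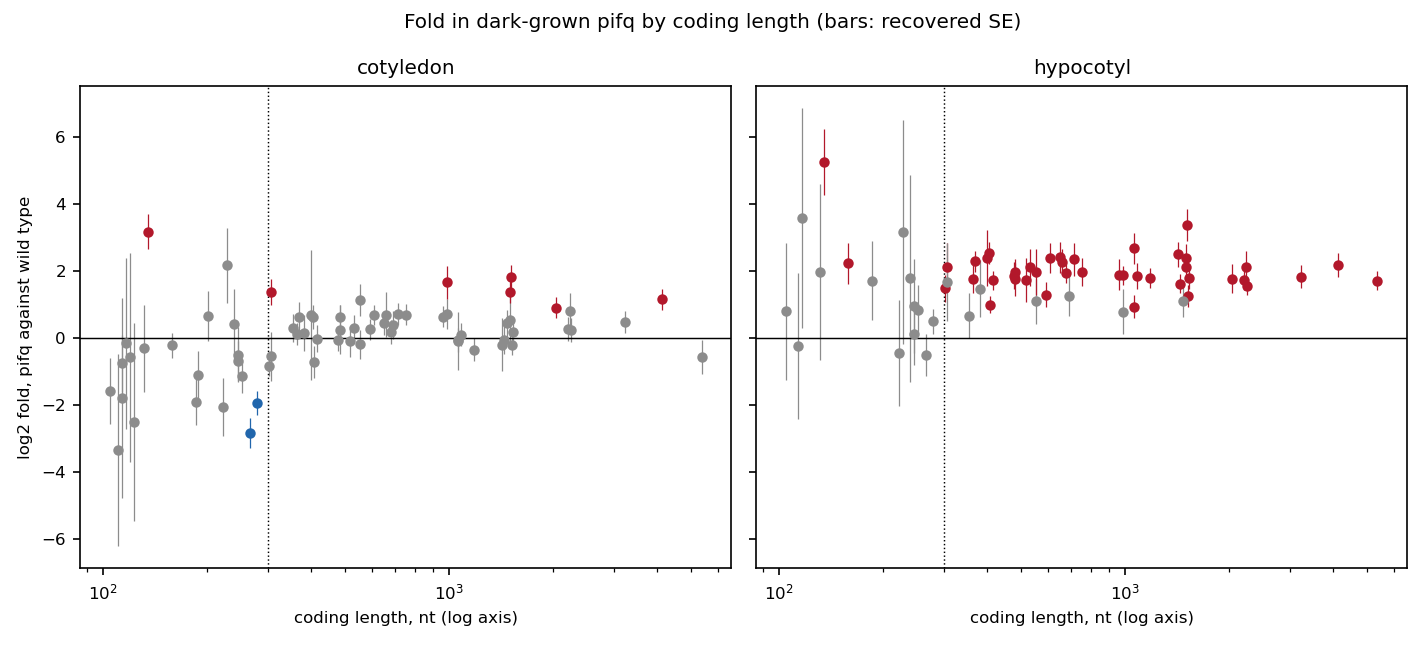
Log2 fold change, pifq against wild type, of the coding genes outside the inverted repeat against coding length (log axis), with the SE as bars; red genes rose, blue genes fell, grey genes were not called and the dotted line marks 300 nt. In cotyledons the shorter genes lie lower, and in hypocotyls all but 3 genes lie above 0.

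The photosystem, ATP synthase and Rubisco genes of 300 nt or longer had no call in mutant cotyledons. psbA was at 92.2 and 88.4 FPKM in wild type and mutant (-0.06, SE 0.35), psbB at 68.4 and 76.8 (0.17), psbD at 752 and 704 (-0.10), psaA at 88.7 and 105 (0.24), psaB at 85.3 and 103 (0.28) and rbcL at 321 and 311 (-0.05). The mutant and wild type values of these genes lay side by side. atpA and atpB gave -0.20 and 0.55, petB 0.46, ndhF 0.81, clpP 0.27, accD 0.43, rps4 0.69, rpl16 -0.72, ycf1.2 -0.58, and the copies of ndhB and ycf2 0.88 and 0.84. Among nuclear partners 0 of 9 photosystem II genes, 1 of 12 photosystem I genes and 0 of 21 plastid ribosomal protein genes rose, against 4.79% of all tested genes. Their median folds were 0.72, 0.77 and -0.06, against -0.03 over all genes. Positive folds numbered 9 of 9, 11 of 12 and 10 of 21.

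In dark hypocotyls the pifq mutations raised most of the chloroplast genome. Of 85 tested members 55 rose and 0 fell, against 13% and 14.5% of all tested genes, and at an unadjusted p under 0.05 the counts were 61 and 0. With the normal p 55 of these calls were kept among 56. The normal score of the deposited p-value was already 1 times the statistic here, so this step repeated the authors' test and is no separate check. The median fold was 1.77, against -0.03 over all genes. All 48 longer genes outside the repeat had a positive fold, from 0.67 to 3.39, and 41 of them were called. The 55 rises count both copies of repeat genes. Of 66 tested coding genes outside the repeat 43 rose and 0 fell. Relative to the chloroplast median, which by construction places genes on both sides of 0, 3 members were called above it and 7 below it.

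Every function shared in the rise. Among photosystem genes, 3 of 4 tested in photosystem I and 4 of 12 in photosystem II rose. psaA went from 10.3 to 30.3 FPKM (1.56, SE 0.27, q = 2.82e-07 in the authors' deposited table) and psaB from 9.18 to 30.3 FPKM (1.72, SE 0.28). psbD rose from 38.7 to 248 FPKM (2.68, SE 0.45) and psbC from 35.6 to 201 FPKM (2.50, SE 0.38). psbB rose from 5.58 to 19.2 FPKM (1.78), and psbA from 8.81 to 16.8 FPKM, the smallest called rise (0.93, SE 0.34, q = 0.0252 in the authors' deposited table).

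psaJ had the largest fold of all members, from 266 to 10211 FPKM (5.26, SE 0.98, q = 1.5e-06 in the authors' deposited table). matK had the next largest called fold, from 0.951 to 9.94 FPKM (3.39, SE 0.47), and rps18 rose by 2.14. All 3 were also called in mutant cotyledons. The small photosystem II genes psbH, psbK, psbM and psbN had no call, at -0.46, 1.72, 0.79 and 1.97. ycf4, for photosystem I assembly, rose by 1.98, and ycf3 gave 1.48 with no call.

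All 3 tested cytochrome b6f genes rose: petB from 4.14 to 22.0 FPKM (2.41), petA from 2.07 to 7.72 FPKM (1.90) and petD from 7.62 to 25.8 FPKM (1.76). For ATP synthase 4 of 6 rose. atpB went from 165 to 717 FPKM (2.12, SE 0.36), atpI from 4.49 to 17.6 FPKM (1.97) and atpA from 5.43 to 12.9 FPKM (1.25). Within the atpI operon the folds were 2.35 for rps2, 1.97 for atpI, 0.11 for atpH, 1.09 for atpF and 1.25 for atpA, with atpH and atpF not called. rbcL rose from 11.4 to 35.1 FPKM (1.63, SE 0.29).

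Of 12 NDH entries, counting both copies of ndhB, 11 rose, with folds from 1.67 to 2.38 over the 12. ndhC, ndhK and ndhJ, which share an operon, rose by 1.78, 1.93 and 1.86, and ndhF rose from 1.49 to 6.48 FPKM (2.12, SE 0.48). ndhB rose in both copies (2.21). ndhE was the exception, at 1.67 with an SE of 1.16. The 4 polymerase genes rose by similar amounts: rpoB by 1.84, rpoC1 by 1.77, rpoC2 by 2.18 and rpoA by 1.87.

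Of 26 ribosomal protein entries, counting both copies of repeat genes, 16 rose (median 1.72). rpl14 rose from 134 to 657 FPKM (2.29, SE 0.31, q = 6.05e-12 in the authors' deposited table), and rps4, rps2 and rps3 rose by 2.39, 2.35 and 2.28. rpl16 rose by 1.00. rps15 and rps19, which fell in mutant cotyledons, had no call at -0.50 and 0.49. Of the other functions, clpP rose from 12.5 to 30.5 FPKM (1.29), ycf1.2 from 17.8 to 58.7 FPKM (1.72) and ycf2 by 1.37. accD (1.1, SE 0.47, q = 0.0646 in the authors' deposited table) and ccsA (0.79) had no call. 23S rRNA rose in both copies, from 478 to 1073 FPKM for the first (1.17, q = 0.0316 in the authors' deposited table), and 16S rRNA had no call at 514 and 679 FPKM. The libraries were made as mRNA libraries, and what share of rRNA passed into them was not tested.

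The nuclear partner genes rose in the same hypocotyls: 12 of 12 for photosystem I (median 4.39), 9 of 9 for photosystem II (3.97), 21 of 21 for plastid ribosomal proteins (2.27) and 11 of 12 polymerase-associated genes (1.57). Of all tested genes 13% rose there. Of the sigma factors 3 of 6 rose, SIG1 from 3.74 to 18.6 FPKM, SIG2 from 7.94 to 19.5 FPKM and SIG6 from 2.07 to 12.6 FPKM. Neither phage-type polymerase gene was called (0.86 for RPOTP and 0.47 for RPOTMP). Of the nuclear NDH genes 2 of 7 rose, with a median fold of 1.53 and a median SE of 0.92. The chloroplast-encoded NDH genes had a median fold of 1.90 and a median SE of 0.46.

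Genes listed as markers of leaf mesophyll did not all move with this result. Of 4 marker genes 3 rose in mutant hypocotyls: LHCB1.3, a light-harvesting protein gene, from 142 to 9029 FPKM, RBCS1A from 212 to 1830 FPKM and GAPA from 11.0 to 91.7 FPKM. CA1, the chloroplast carbonic anhydrase gene, had no call at 11.7 and 8.45 FPKM. Their summed level was 377 FPKM in wild type and 10959 FPKM in mutant hypocotyls, and in light 358, 708 and 3210 FPKM in the dark, at 1 h and at 6 h. LHCB1.3 made up most of the mutant sum. All 4 were above 0 in every hypocotyl group. In dark wild type cotyledons CA1 stood at 805 FPKM and GAPA at 1409 FPKM, and LHCB1.3 and RBCS1A carried the status HIDATA in all 3 cotyledon tables. Of 5 root markers CASP1 made up nearly all of the sum, which was 809 FPKM in wild type and 299 FPKM in mutant hypocotyls and at most 3.54 FPKM in cotyledons. Of the 3 root markers tested in mutant hypocotyls CASP1 fell (-1.47) and WER, a regulator of root epidermal cell fate, rose from 3.01 to 6.73 FPKM (1.16). The part of cell makeup in the chloroplast result was not tested.

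The response to the mutations differed between the organs. The hypocotyl fold was subtracted from the cotyledon fold gene by gene and tested with a normal p, adjusted by Benjamini-Hochberg over all genes tested in both tables and called under 0.05. Of 76 members 34 had a lower fold in cotyledons than in hypocotyls and 0 a higher one, against 6.97% and 4.46% of all genes. The median difference was -1.62 for members and -0.03 for all genes, and 75 of 76 differences were negative. The differing entries included 11 of 15 small-subunit and 7 of 10 large-subunit ribosomal entries, 5 of 12 NDH entries, 3 of 10 photosystem II genes, 2 of 4 photosystem I genes and rbcL. Both copies of rpl2, rpl23, rps7 and the rps12 exons in the repeat are counted separately among them.

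psbD had a difference of -2.77 (SE 0.99) and psbC one of -2.70 (SE 0.87). rbcL differed by -1.68 (SE 0.53), psaA by -1.31 and psaB by -1.44. ndhH differed by -2.14 (SE 0.45), rps19 by -2.43 (SE 0.52) and rps14 by -2.31 (SE 0.51). The rps19 difference rests on 7752 FPKM for wild type cotyledons in the mutant tables, against 4601 FPKM in the light tables. matK, psaJ, rpoC2 and psbA were not among the 34.

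**Figure D5:**
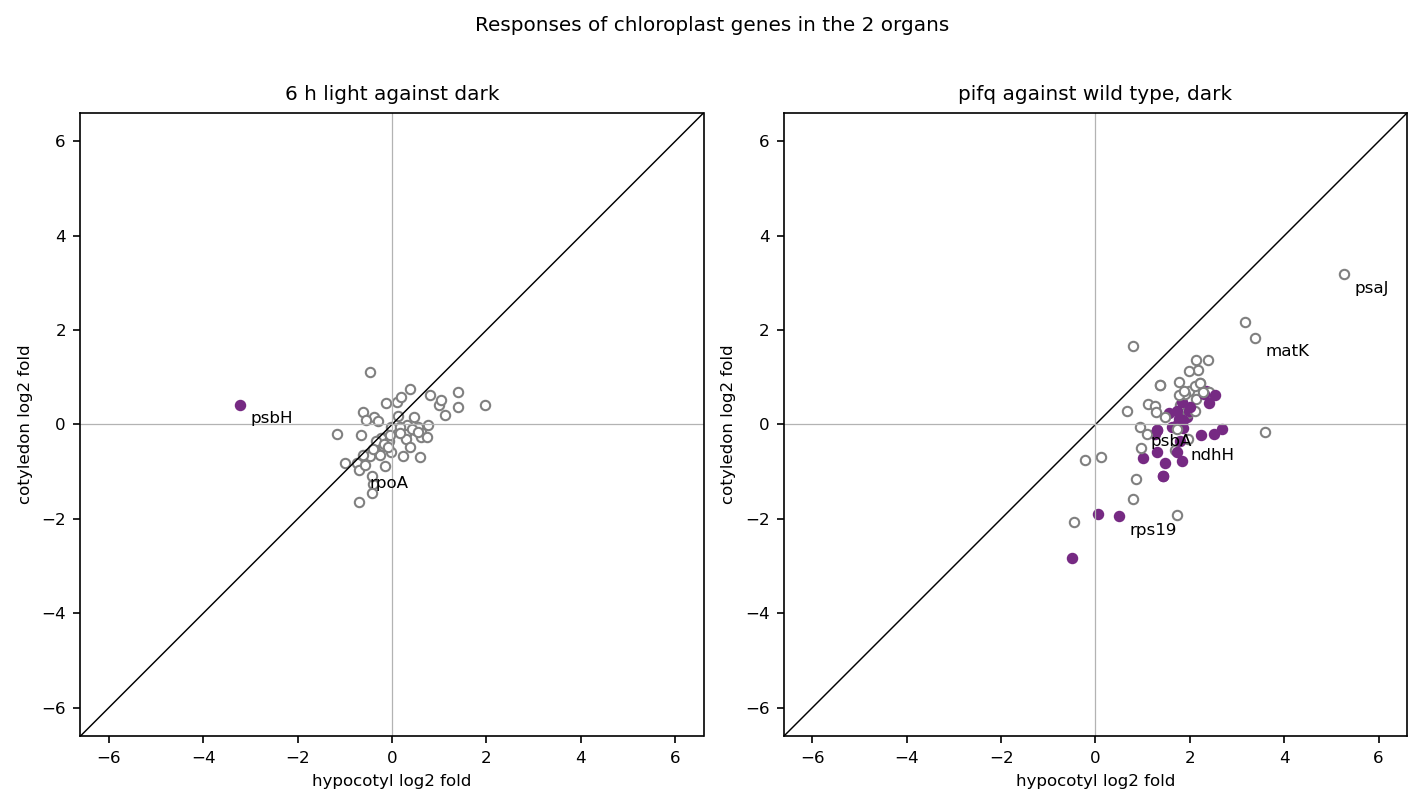
Cotyledon log2 fold (y axis) against hypocotyl log2 fold (x axis) for members tested in both organs, at 6 h of light and in dark pifq; filled points differ between organs at an adjusted p under 0.05 and the diagonal marks equal folds. In the mutant 75 of 76 points lie below the diagonal, and in light 48 of 63 do.

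In light the organ difference was called for few members. The recovered SEs of the light tables are wider than their deposited p-values imply, which does not hold for the mutant tables. These counts are therefore not compared with those of the mutant. At 1 h it was called for 0 of 63 members in either direction, against 0.321% lower and 0.138% higher in cotyledons over all genes; at an unadjusted p under 0.05, 4 were lower and 0 higher, and with SEs taken from the p-values 3 were lower. At 6 h psbH alone was called, with a difference of 3.63 (SE 1.2) between 0.42 in cotyledons and -3.21 in hypocotyls. The members called higher at 6 h were thus 1 of 63 and those lower 0 of 63, against 6.62% and 5.99% of all genes. psbH is a short gene at 1.65 FPKM in the light-treated hypocotyl.

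The other organelle genome gave different values. Of 81 tested mitochondrial genes 2 rose and 11 fell in mutant hypocotyls, against 13% and 14.5% of all tested genes. The median was -0.84 and the median SE 0.82. Of 69 in mutant cotyledons 0 rose and 4 fell, against 4.79% and 5.66%, with a median of -0.85 and a median SE of 0.77. The shares of falls were near the background in both organs. In light their medians were 0.43 and -0.06 in cotyledons at 1 h and 6 h and 0.07 and -0.00 in hypocotyls. In mutant hypocotyls the mitochondrial median was thus below 0 where the chloroplast median was 1.77.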

How the data were processed

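The labels' protocols give RNeasy total RNA and mRNA libraries. TopHat, Cufflinks and the TAIR10 build are named, without versions, in the submitters' processing notes. Each of the 6 tables that the authors deposited lists 33557 genes with a value for both groups, taken here as FPKM, together with a log2 ratio, a statistic, p-values, q-values and a status. Values of single samples and depths were not analysed here, so no interval is given.

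A member was tested where its status was OK and called where the deposited q-value was under 0.05; directions were read from the group values. SE is the absolute log2 fold over the absolute statistic. Organ differences were tested with a two-sided normal p and Benjamini-Hochberg adjustment over all genes tested in both tables (Python 3.11.15, pandas 2.3.3, NumPy 2.4.6, SciPy 1.17.1, matplotlib 3.10.9). The step was also run on simulated folds drawn with the same recovered SEs, which cannot show whether those SEs suit the data. Coordinates of 118 of 133 members equalled those of the RefSeq annotation. Repeat copies are entries of 1 symbol with identical sequence, and a partial copy has at least 90% of its 50-base words elsewhere in the chloroplast genome.

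The text names a fixed set of core genes of each function, and per functional class the called member with the largest rise and fall of at least 5 FPKM, all members with status HIDATA, up to 4 called genes per organ contrast, and others chosen after their values were seen to complete an operon or a function. The members and lists were chosen with earlier results of these data known. Alternatives covered other thresholds, tests, centrings, filters and pseudocounts of 1 and 0.1 FPKM. Results of some members are not reported here.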

Additional observations from a re-analysis of the deposited data

Results flagged for a closer look

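For 5 members the fold change differed between cotyledons and hypocotyls under the same contrast, by a normal p adjusted over all genes. At 6 h of light the psbH difference, cotyledon minus hypocotyl, was 3.63 on the log2 scale; psbH was at 1.65 FPKM in the hypocotyl at that time. In dark pifq the 4 members of smallest p were ndhH at -2.14, rps19 at -2.43, rps14 at -2.31 and ycf1.1 at -2.62. For rps19 the dark wild type cotyledon value was 7752 FPKM in the mutant tables and 4601 FPKM in the light tables, so the size of its difference is uncertain. ycf1.1 is a partial copy of ycf1.2 in the inverted repeat, so its reads cannot be told apart from those of that gene.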

How the results depend on the processing

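No paired analysis was possible because the tables give 1 value per group, and for the same reason no replicate was left out. The restriction to genes of 300 nt or longer outside the repeat was chosen after seeing the data. In cotyledons at 1 h the rise became 0 when centred on all genes or restricted to long genes, and the falls became 0 with the normal p and with either centring. With the normal p or centred on the chloroplast median the rise was psbL (SE 0.003) and not rpl32. At 6 h the 14 falls became 7 at a q under 0.01, 6 with the normal p, 6 centred on all genes, 5 centred on the chloroplast median and 9 for long genes. The counts with the normal p and with either centring include petG (SE 0.003), which was not among the 14. In hypocotyls at 1 h the rise became 2 with the normal p or either centring and 0 for long genes, and the falls became 1 with the normal p or either centring. Those 2 rises were rps16 and psbN and that fall was psbI, with recovered SEs of 0.231, 0.0213 and 0.00356. The deposited q called none of them, and psbZ was not among them. At 6 h the rises became 4 with the normal p, and the falls became 1 at a q under 0.01 or for long genes. Of those 4 rises only psaA was also called by the deposited q, and the others were rps16, rps12A and psbN. In mutant cotyledons the falls became 3 at a q under 0.01 and 0 for long genes. In mutant hypocotyls centring on the chloroplast median gave 3 rises and 7 falls. The median over all 133 members, tested or not, was 0.83 with a pseudocount of 1 FPKM and 1.11 with 0.1 FPKM. Among these members 39 were listed at 0 in every group, and each adds a fold of 0. Subtracting the members' own median must turn every rise smaller than that median negative, so these values say only which rises were below it: psbA -0.83, atpA -0.51, rps14 -0.28, psaB -0.045, psaA -0.21, rbcL -0.14, clpP -0.48, petD -0.0050, rpl16 -0.76, the ycf2 copies -0.40 each, rps7 -0.46 and -0.46, 23S rRNA -0.60 and -0.60, ndhI -0.039, ycf1.2 -0.047 and rps12B -0.46. The organ difference at 1 h gave 3 lower members with SEs from the p-values; at 6 h it gave 1 lower with these SEs and 0 higher at an adjusted p under 0.01 or for long genes. In the mutant the 34 became 16 at an adjusted p under 0.01 and 22 for long genes. Apart from the fewer genes in the restricted sets and the entries at 0 in the pseudocount medians, the cause of these shifts was not tested. Depth is unknown, so it is not known which calls it limits.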
